A study of Mus musculus with 8 samples.

Results

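The 10 adipogenic commitment factors Pparg, Ppard, Cebpa, Cebpb, Cebpd, Ebf1, Ebf2, Zfp423, Dlk1 and Adipoq were followed in C3H10T1/2 cells treated with sphingosine 1-phosphate (S1P) or with vehicle. They were taken by symbol from the deposited gene count table, where each matched 1 of 18306 rows, and all 10 had counts in at least 1 library. C3H10T1/2 is an established mouse mesenchymal cell line of embryonic origin, and S1P is a signalling sphingolipid sensed by G protein-coupled receptors. The S1P group held 4 libraries (replicates 5 to 8) of cells given 5 µM S1P for 24 h. The vehicle group held 4 libraries (replicates 1 to 4) of cells given 0.1% fatty acid-free bovine serum albumin for the same time. Cells of both groups had been kept without serum for 24 h beforehand, and no hormone mixture that induces adipocytes is named in the labels. Whether separate cultures stood behind the libraries of each group is not stated, and the p-values therefore reflect no more than the spread among these libraries, which may be technical.

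Adipocyte formation from mesenchymal cells runs through a cascade of transcription factors. In preadipocytes, Zfp423 and the EBF factors favour commitment, Cebpb and Cebpd act early after a differentiation stimulus, and they activate Pparg and Cebpa, which maintain each other and turn on the genes of the fat cell. Pparg encodes the nuclear receptor PPARgamma, the master regulator of the fat cell, and is transcribed from several start sites, of which a downstream one gives the fat-enriched isoform. Dlk1, also called Pref-1, is a surface protein that holds preadipocytes back, and Adipoq encodes adiponectin, a hormone of mature adipocytes.

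To show what the C/EBP link looks like in sequence, promoter windows of 250 bases upstream of each RefSeq start (build GRCm38.p6) were searched on both strands for a C/EBP motif (TTGCNNAA), an EBF palindrome (TCCC, any 2 bases, GGGA), a PPAR direct repeat (AGGTCA, any 1 base, AGGTCA) and a cyclic AMP response element (TGACGTCA). RefSeq gave 12 windows for 8 of the 10 genes, Ebf2 and Cebpd being the ones without. A match was found in 2 of the 12 windows, and in both it was the C/EBP motif, which 9.56% of all 32851 windows hold. The shares of all windows were 0.779% for the EBF palindrome, 0.0335% for the PPAR repeat and 1.55% for the cyclic AMP element. The windows below are those of the most downstream and the most upstream start of Pparg and the window of Zfp423 with a match, each 5′ to 3′ on the strand of the gene and with the C/EBP motif in capitals.
Pparg, downstream start, chr6:115421816-115422065, plus strand: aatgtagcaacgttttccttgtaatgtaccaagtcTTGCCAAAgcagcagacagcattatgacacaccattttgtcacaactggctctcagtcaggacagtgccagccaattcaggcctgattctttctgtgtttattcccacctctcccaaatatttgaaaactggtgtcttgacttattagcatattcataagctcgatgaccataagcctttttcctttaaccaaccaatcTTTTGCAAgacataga
Pparg, upstream start, chr6:115360894-115361143, plus strand: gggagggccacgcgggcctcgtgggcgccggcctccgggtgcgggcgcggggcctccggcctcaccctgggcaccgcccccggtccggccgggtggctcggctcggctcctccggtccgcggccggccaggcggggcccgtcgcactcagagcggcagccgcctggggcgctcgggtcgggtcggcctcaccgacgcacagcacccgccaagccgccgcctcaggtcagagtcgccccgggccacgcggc
Zfp423, upstream start, chr8:87959596-87959845, minus strand: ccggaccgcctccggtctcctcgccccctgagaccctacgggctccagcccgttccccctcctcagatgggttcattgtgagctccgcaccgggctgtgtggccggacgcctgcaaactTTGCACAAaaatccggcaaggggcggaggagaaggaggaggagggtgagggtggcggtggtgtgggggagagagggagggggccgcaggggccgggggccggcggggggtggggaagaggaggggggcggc
The downstream Pparg window held the motif at 2 places and had a GC content of 40.8%, whereas the upstream one held none and had a GC content of 82.4%. The deposited counts are per gene, so they do not tell which start was in use, and a motif match is a description of these letters and not evidence of binding.

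Each library summed to 13750303 to 13761544 counts. Values are given as CPM, counts scaled to the summed counts of the tested genes and to trimmed mean of M-values (TMM) factors. A count of 0 allows up to 3 counts, or 0.213 to 0.223 CPM, and this limit covers counting error only. Of the 18306 genes, 11844 had enough counts to be tested with edgeR's quasi-likelihood test, and 8 of the 10 commitment factors were among them. Vehicle replicate 4 stood apart from the other vehicle libraries: its mitochondrially encoded genes took 2.5% of the counts, against 3.45% to 3.83% in the other 7 libraries. Its log2 difference from the mean of the other vehicle libraries varied with GC content. The median was -0.44 among tested genes of a GC content like that of Ebf1 and 1.49 among those like Cebpa. Most of the 14 markers of mesenchymal cells were abundant, and none of the 13 tested passed. The highest by the mean of all 8 libraries were Fn1, at 10802 ± 1256 CPM after S1P and 9185 ± 952 CPM in vehicle (SD, n = 4 each), Col1a2 and Col3a1. The lowest, named after their values were seen, were Twist1 and Eng, with means of 19.8 and 19.6 CPM over all 8 libraries, and Nt5e. Nt5e was not tested and had at most 9 counts in a library. Pdgfra, a receptor carried by adipocyte progenitors and named after its value was seen, had 762 ± 285 CPM after S1P and 1571 ± 563 CPM in vehicle (SD, n = 4 each; edgeR adjusted p = 0.0853). Its part in the results for the commitment factors was not tested. Markers of other lineages were low or absent. The summed level of the 2 epithelial markers found, Cdh1 and Krt14, was 1.47 to 2.18 CPM after S1P and 1.11 to 2.83 CPM in vehicle, that of 6 blood cell markers 1.53 to 5.49 CPM after S1P and 2.6 to 6.46 CPM in vehicle, and that of 4 skeletal muscle markers 0 to 0.217 CPM after S1P and 0.074 to 0.148 CPM in vehicle. The 6 endothelial markers summed to 17.3 to 44.0 CPM after S1P and 36.6 to 77.0 CPM in vehicle, almost all of it from Tek, an angiopoietin receptor (edgeR adjusted p = 0.178). The defining markers Cdh5 and Kdr had at most 3 counts in any library, and Pecam1 had at most 6.

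No commitment factor passed the test after S1P, and all 8 tested ones had a negative log2 fold change, that of Cebpa lying at -0.02 and turning positive in 6 other fits, among them those without vehicle replicate 4 (0.49) and with GC offsets (0.57). Their median log2 fold change was -0.66, against -0.04 over all tested genes, of which 6389 of 11844 had a negative value. Without vehicle replicate 4 the median over all tested genes was 0.004. In that fit Ppard and Cebpd came to -0.13 each, Cebpb to -0.31, Dlk1 to -0.57 and Zfp423 to -0.95. Pparg and Ebf1 were -0.71 and -0.65 there. In the fit on all libraries none of the 8 was called. Beside this, 8.5% of all tested genes were called there in either direction, 5.6% higher and 2.9% lower (edgeR quasi-likelihood test, Benjamini-Hochberg adjusted p under 0.05). Of all calls 65.8% were higher, and with GC offsets 55.7%. At an unadjusted p under 0.05 there were 4 of the 8, Pparg, Ebf1, Zfp423 and Dlk1, beside 24.9% of all tested genes. The S1P and vehicle libraries did not overlap for 3 of the 10 genes, of which the tested Ebf1 and Zfp423 are read beside the 19.1% of tested genes with separate groups. DESeq2 called 3 of the 8, Pparg, Ebf1 and Zfp423, beside 15% of all genes it tested. Limma-voom called none of the 8, beside 8.65% of all tested genes. In bulk RNA, fewer cells of a type and less RNA per cell cannot be told apart.

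**Figure D1:**
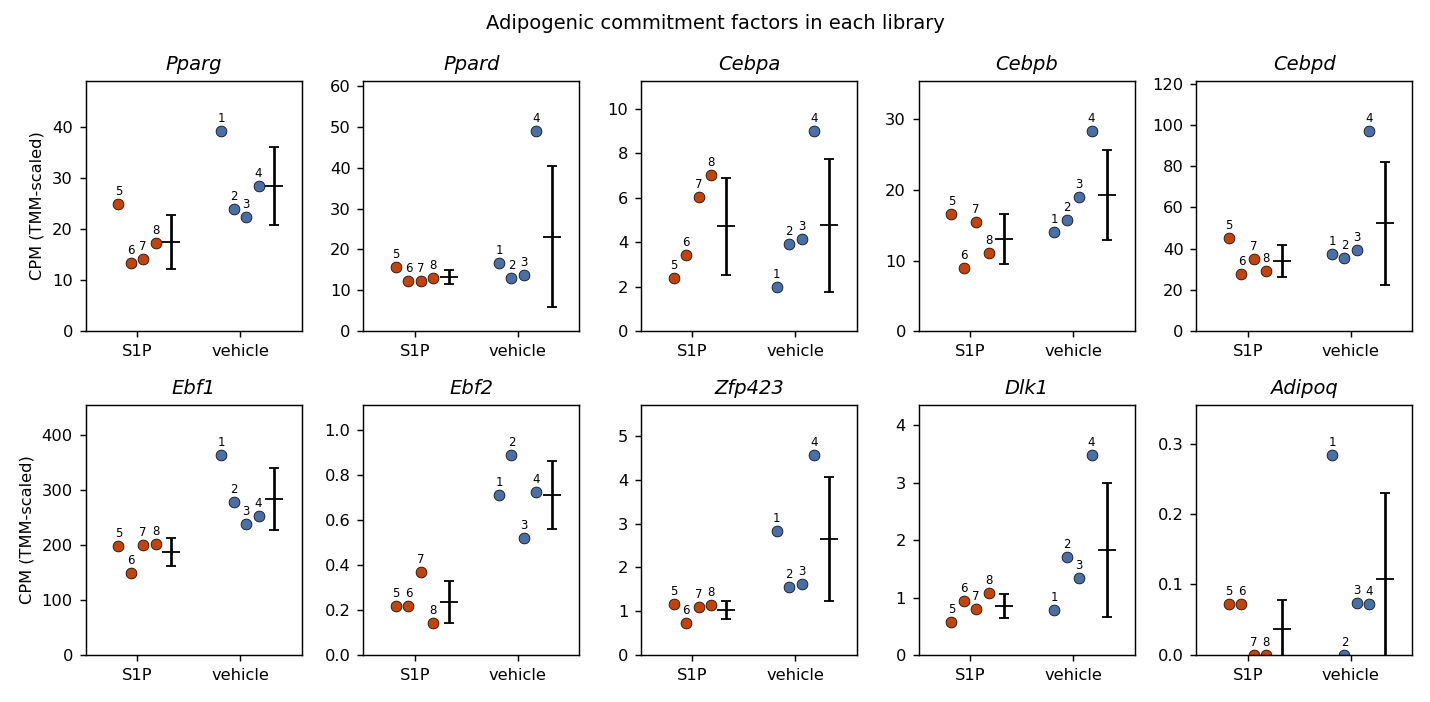
TMM-scaled CPM (y axes, linear, each with its own range) of the 10 commitment factors in the S1P libraries 5 to 8 and the vehicle libraries 1 to 4; points are libraries with their replicate number, and bars are mean ± SD (n = 4 each). Ebf1, Ebf2 and Zfp423 have separate groups, and vehicle replicate 4 is the highest library for Ppard, Cebpa, Cebpb, Cebpd, Zfp423 and Dlk1.

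Across the 10 genes, levels set per kilobase of transcript spanned a wide range. Ebf1 was the highest, at 31.3 ± 4.33 CPM per kb after S1P and 47.4 ± 9.40 CPM per kb in vehicle (SD, n = 4 each). Cebpd came next, at 21.6 CPM per kb after S1P and 33.1 CPM per kb in vehicle, and its range of libraries overlapped that of Ebf1 in both groups. Cebpb and Pparg followed with overlapping ranges, Cebpb at 8.67 CPM per kb after S1P and 12.8 CPM per kb in vehicle and Pparg at 8.22 CPM per kb after S1P and 13.4 CPM per kb in vehicle. Ppard stood at 3.57 CPM per kb after S1P and 6.21 CPM per kb in vehicle, and Cebpa at 1.80 CPM per kb after S1P and 1.82 CPM per kb in vehicle. Zfp423 and Dlk1 were both under 1 CPM per kb in every library, and Ebf2 and Adipoq were lower still. The ranges of neighbours in this order were separate after S1P below Cebpd, Pparg, Ppard, Cebpa and Dlk1, and in vehicle only below Cebpd and Ppard. For Cebpd the 1581 bases of its span in the deposited table were used, because the longest annotated transcript, at 3746 bases, is longer than that span.

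Of the factors that set up commitment, Ebf1, an early B-cell factor that acts upstream of Pparg, is on chromosome 11, 44430619 to 44821793 in mm9. It had 199, 148, 199 and 202 CPM in S1P replicates 5 to 8, against 364, 278, 239 and 252 CPM in vehicle replicates 1 to 4. Every S1P library was below every vehicle library, with S1P replicate 6 the lowest and vehicle replicate 1 the highest. The log2 fold change was -0.60 (SE 0.16, 95% interval -0.96 to -0.24), and its adjusted p of 0.0515 lay just past the threshold (edgeR, Benjamini-Hochberg). Ebf1 passed without vehicle replicate 3 (adjusted p = 0.0489 in edgeR) and without vehicle replicate 4 (adjusted p = 0.0306 in edgeR), and it did not pass without any of the other 6 libraries (adjusted p of up to 0.153 in edgeR). It passed with relative log expression scaling (edgeR adjusted p = 0.0434), with a surrogate variable (edgeR adjusted p = 0.0262), with GC offsets (edgeR adjusted p = 0.0121) and with DESeq2 (adjusted p = 0.00503). Ebf1 did not pass with no filter or with 1 CPM in 4 libraries (edgeR adjusted p = 0.0575 and 0.0505). Nor did it with limma-voom (adjusted p = 0.0516).

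Its relative Ebf2, which marks brown and beige preadipocytes, is on chromosome 14, 67851929 to 68049955, and was near the limit of detection. It had 3, 3, 5 and 2 counts in S1P replicates 5 to 8, 13 in all, against 10, 12, 7 and 10 counts in vehicle replicates 1 to 4, 39 in all. The groups were separate, but these counts were too few for the filter, so Ebf2 was not among the tested genes. All 4 S1P libraries were below the filter's minimum of 10 counts. Fits in which Ebf2 passed this filter therefore took it in through the vehicle group alone and give no test of it. With no filter beyond 1 count in all libraries together, its log2 fold change was -1.54 and did not pass (edgeR adjusted p = 0.0841). Ebf3, another EBF gene, had 62.8 ± 24.8 CPM after S1P and 75.5 ± 24.8 CPM in vehicle (SD, n = 4 each), a log2 fold change of -0.27, and Ebf4 had at most 2 counts in a library.

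Zfp423, a zinc finger factor of preadipocyte commitment that raises Pparg, is on chromosome 8, 90185509 to 90483694, and was scarce. It had 16, 10, 15 and 16 counts in S1P replicates 5 to 8, against 40, 21, 22 and 63 counts in vehicle replicates 1 to 4. In CPM this was 1.03 ± 0.206 after S1P and 2.65 ± 1.41 in vehicle (SD, n = 4 each), with separate groups and with vehicle replicate 4 the highest. The log2 fold change of -1.35 (SE 0.40, 95% interval -2.25 to -0.46) was the largest in size among the 8 and did not pass (edgeR adjusted p = 0.0682). It passed with DESeq2 (adjusted p = 0.0295), a surrogate variable (edgeR adjusted p = 0.0409) and GC offsets (edgeR adjusted p = 0.0379), in none of the 8 fits without 1 library (edgeR adjusted p of 0.056 to 0.197), and was -0.95 without vehicle replicate 4. Relative log expression scaling, no filter and 1 CPM in 4 libraries did not call it (edgeR adjusted p = 0.0662, 0.0842 and 0.0676). Nor did limma-voom (adjusted p = 0.102). Zfp521, a related zinc finger factor that opposes Zfp423, had 88.3 ± 9.09 CPM after S1P and 90.4 ± 11.3 CPM in vehicle (SD, n = 4 each; log2 fold change -0.03, SE 0.12).

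Pparg (chromosome 6, 115311039 to 115440619) had 25.0, 13.3, 14.2 and 17.4 CPM in S1P replicates 5 to 8, against 39.3, 23.9, 22.3 and 28.5 CPM in vehicle replicates 1 to 4. S1P replicate 5 lay within the vehicle range, and the other 3 S1P libraries lay below all vehicle libraries. The first library of each group, S1P replicate 5 and vehicle replicate 1, was the highest of its group. Whether the libraries were made in pairs is not stated, and the test used no pairing. A log2 fold change of -0.71 was found (SE 0.25, 95% interval -1.26 to -0.15), which did not pass (edgeR adjusted p = 0.114). Without S1P replicate 5 it was -0.93 and passed (edgeR adjusted p = 0.0443), and DESeq2 on all 8 libraries also called it (adjusted p = 0.0417). No other fit called Pparg. The value without vehicle replicate 4 was the same to 2 decimals, -0.71.

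Ppard, whose product PPARdelta governs fatty acid use in many tissues, is on chromosome 17, 28369499 to 28438614. It had 15.8, 12.2, 12.2 and 13.0 CPM in S1P replicates 5 to 8, against 16.8, 13.1, 13.7 and 49.0 CPM in vehicle replicates 1 to 4. The groups overlapped, and only vehicle replicate 4 lay far from the remaining 7 libraries. This gave a log2 fold change of -0.80 (SE 0.41, 95% interval -1.72 to 0.12; edgeR adjusted p = 0.262), which became -0.13 without vehicle replicate 4. Ppara, the third PPAR gene, had at most 1 count in any library.

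Among the C/EBP factors, the early-acting Cebpb (chromosome 2, 167514215 to 167516118) had 16.6, 9.01, 15.5 and 11.1 CPM in S1P replicates 5 to 8, against 14.0, 15.7, 18.9 and 28.3 CPM in vehicle replicates 1 to 4. The groups overlapped, and the log2 fold change of -0.56 (SE 0.27, 95% interval -1.17 to 0.05) did not pass (edgeR adjusted p = 0.235). It was -0.31 without vehicle replicate 4 and -0.09 with GC offsets. The span of Cebpb overlaps that of Tmem189, which had a higher mean level (52.8 CPM, against 16.1 CPM for Cebpb), and how reads in the overlap were assigned is not given, which leaves the Cebpb values uncertain.

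Cebpd, its early-acting partner (chromosome 16, 15887179 to 15888759), had 45.0, 27.8, 34.8 and 29.0 CPM in S1P replicates 5 to 8, against 37.6, 35.3, 39.1 and 97.1 CPM in vehicle replicates 1 to 4. The groups overlapped, and vehicle replicate 4 was more than any other library by a wide margin. The log2 fold change of -0.61 (SE 0.34, 95% interval -1.37 to 0.14) did not pass (edgeR adjusted p = 0.288), and without vehicle replicate 4 it was -0.13.

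Cebpa, the late-acting partner of Pparg (chromosome 7, 35904112 to 35907145), had 2.38, 3.42, 6.02 and 7.04 CPM in S1P replicates 5 to 8, against 1.99, 3.93, 4.14 and 9.01 CPM in vehicle replicates 1 to 4. Both groups covered much the same range. Its log2 fold change was -0.02 (SE 0.48, 95% interval -1.10 to 1.06; edgeR adjusted p = 0.988), so a change of up to about 1 on the log2 scale in either direction lies within the interval. Its direction turned with the libraries and settings, to 0.49 without vehicle replicate 4 and 0.57 with GC offsets, and none of these values passed.

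The make-up of the C/EBP family was compared as each gene's share of the summed counts per kilobase of Cebpa, Cebpb, Cebpd and Cebpg, the last a short member that pairs with the others. With the longest annotated transcript as the length of every gene, 3746 bases for Cebpd in place of the 1581 bases used for the levels above, Cebpg held 50.5% ± 8.22 of the sum after S1P and 37.0% ± 9.16 in vehicle (SD, n = 4 each). Cebpb held 21.8% ± 4.99 after S1P and 28.9% ± 1.82 in vehicle, Cebpd 23.1% ± 4.91 after S1P and 30.2% ± 7.54 in vehicle, and Cebpa 4.51% ± 1.90 after S1P and 3.86% ± 1.31 in vehicle. None of the 4 shares passed (exact two-sided permutation test, adjusted p of 0.171 to 0.743 over the 4 shares), and with 4 libraries against 4 an unadjusted p cannot fall below 0.0286. After the adjustment over 4 shares, a single share with completely separate groups could not have passed, so the test says little about these shares. With 1581 bases for Cebpd, Cebpd and not Cebpg held the largest share: Cebpd had 41.4% after S1P and 50.2% in vehicle, and Cebpg had 38.7% after S1P and 26.6% in vehicle. The order of these 2 genes thus depends on the length taken for Cebpd. Ddit3, a C/EBP relative that blocks DNA binding by its partners, had 34.9 ± 4.19 CPM after S1P and 35.4 ± 10.4 CPM in vehicle (SD, n = 4 each; log2 fold change -0.02, SE 0.20).

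**Figure D2:**
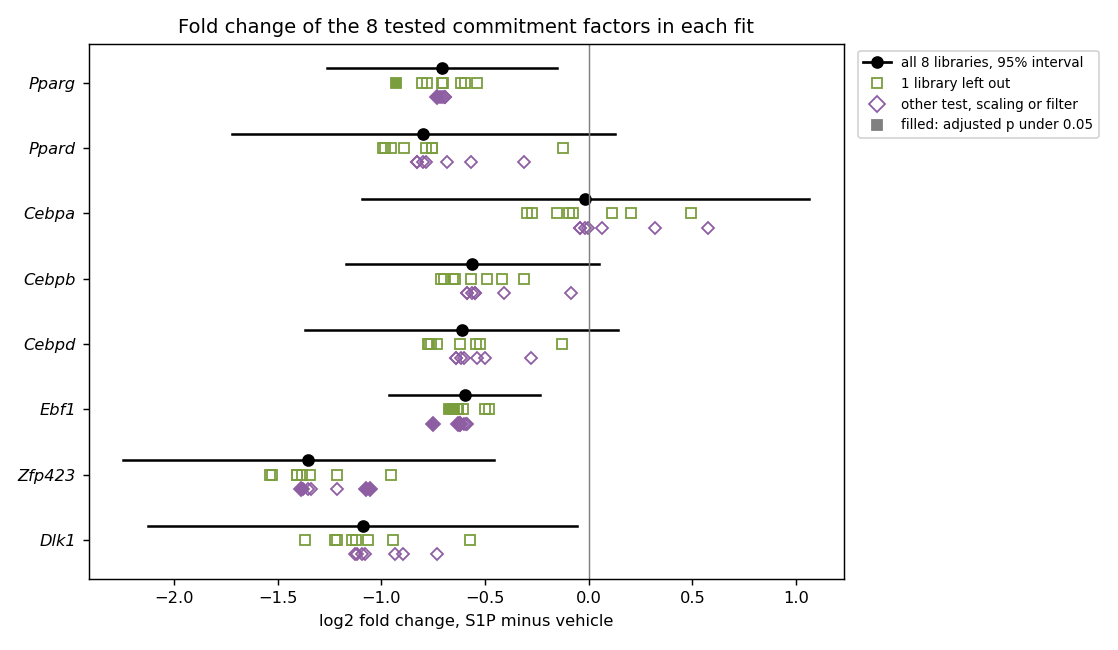
Log2 fold change (x axis, S1P minus vehicle) of the 8 tested commitment factors: black points are the edgeR estimates on all 8 libraries with 95% intervals, squares are fits without 1 library, and diamonds are fits with another test, scaling, filter or covariate, filled where the adjusted p was under 0.05. Filled symbols appear for Pparg, Ebf1 and Zfp423 alone among these 8, and Cebpa lies on both sides of 0.

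Dlk1, the inhibitor of preadipocyte differentiation (chromosome 12, 110690833 to 110701746), had 8, 13, 11 and 15 counts in S1P replicates 5 to 8, against 11, 23, 18 and 48 counts in vehicle replicates 1 to 4. Vehicle replicate 1 lay within the S1P range and vehicle replicate 4 was the highest. Its log2 fold change was -1.09 (SE 0.46, 95% interval -2.13 to -0.06; edgeR adjusted p = 0.182), and without vehicle replicate 4 it was -0.57. Adipoq (chromosome 16, 23146409 to 23158301) had 1, 1, 0 and 0 counts in S1P replicates 5 to 8, against 4, 0, 1 and 1 counts in vehicle replicates 1 to 4. Both groups were at or about the limit that a count of 0 allows, and no fold change is given.

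Vehicle replicate 4 was above the mean of the other vehicle libraries by 1.73 on the log2 scale for Ppard, 1.37 for Cebpd, 1.36 for Cebpa, 1.20 for Dlk1, 1.05 for Zfp423 and 0.80 for Cebpb. Pparg differed by 0.04 there, and Ebf1 was lower by a log2 value of -0.20. Tested genes within 2 percentage points of the GC content of Cebpa (62.6%) had a median difference of 1.49 in the same library, and those like Zfp423 (56.7%) had 0.80. Those like Ppard (52.2%), Cebpd (51.6%) and Dlk1 (53.6%) had medians of only 0.22, 0.15 and 0.40. The median was 1.35 among those like Cebpb (67.2%), of which there were 26, and was above the value of Cebpb. The part of GC content in these values was not tested.

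**Figure D3:**
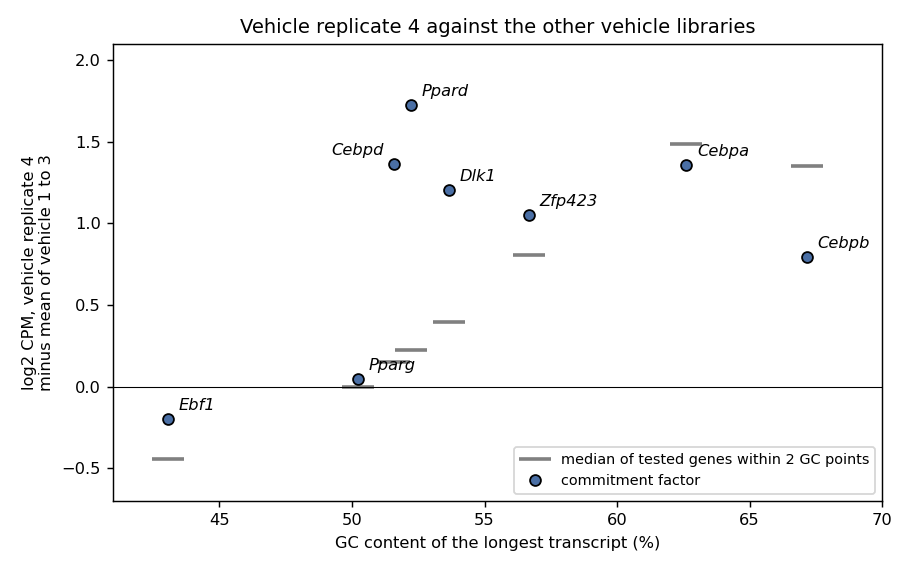
Difference in log2 CPM between vehicle replicate 4 and the mean of vehicle replicates 1 to 3 (y axis) against the GC content of the longest transcript (x axis, %) for the 8 tested commitment factors; grey bars are the median of all tested genes within 2 percentage points of the same GC content. Ppard at 1.73, Cebpd at 1.37 and Dlk1 at 1.20 lie above genes of like GC content, Cebpb at 0.80 lies below them, and Cebpa at 1.36 lies close to them.

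Lists of genes of the same pathway were read beside the 8.5% of all tested genes called, 5.6% higher and 2.9% lower. Among 5 tested family relatives of the factors none passed (median log2 fold change -0.02), the most abundant being Zfp521, given above, and Cebpg at 93.4 ± 13.7 CPM after S1P and 72.8 ± 6.12 CPM in vehicle (SD, n = 4 each; edgeR adjusted p = 0.124). Of 14 tested partners, coactivators and corepressors of PPARgamma none passed, with 11 negative and 3 positive log2 fold changes and a median of -0.19. The corepressor Ncor1 had 223 ± 9.43 CPM after S1P and 249 ± 10.2 CPM in vehicle, and the acetyltransferase Ep300 had 108 ± 4.18 CPM after S1P and 112 ± 12.0 CPM in vehicle (SD, n = 4 each). The coactivator Ppargc1a had at most 2 counts in a library.

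Of 25 tested further promoters of adipocyte formation, 1 fell and 24 did not pass, beside 2.9% of all tested genes called lower, with a median log2 fold change of -0.08. The faller was Klf4, a Krüppel-like factor that activates Cebpb in preadipocytes, with 103, 92.2, 75.9 and 85.2 CPM in S1P replicates 5 to 8 and a vehicle mean of 169 ± 34.3 CPM (SD, n = 4). Its log2 fold change was -0.93 (edgeR adjusted p = 0.0103), and its call was kept in all 8 fits without 1 library. Of 29 tested inhibitors of adipocyte formation, 2 rose, 1 fell and 26 did not pass, beside 8.5% of all tested genes called in either direction, with a median log2 fold change of 0.04. Trib3, a pseudokinase, rose 3.93-fold to 12.9 ± 6.20 CPM, against 3.28 ± 1.68 CPM in vehicle, and Hes1, a repressor downstream of Notch, rose 1.75-fold to 29.5 ± 4.27 CPM, against 16.9 ± 2.98 CPM in vehicle (SD, n = 4 each; edgeR adjusted p = 0.0289 and 0.0176). Klf2, a repressor of the Pparg promoter, fell 2.73-fold to 11.3 ± 2.36 CPM, against 30.9 ± 13.1 CPM in vehicle (edgeR adjusted p = 0.0156). Each of these 3 calls was lost in some of the fits without 1 library: leaving out vehicle replicate 2 or 3 or S1P replicate 6, 7 or 8 ended that of Trib3, leaving out S1P replicate 7 or vehicle replicate 2 that of Hes1, and leaving out S1P replicate 6 or 7 that of Klf2 (edgeR adjusted p of up to 0.0936, 0.0624 and 0.0622).

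Among adipocyte markers and targets of PPARgamma or C/EBPalpha, 10 of 35 were not found in the table, among them Plin1, Cd36, Lep and Cfd, and 18 were tested. Of these 1 rose, 2 fell and 15 did not pass, beside 8.5% of all tested genes called in either direction, with a median log2 fold change of -0.27. Among the 18 there were 6 positive and 12 negative log2 fold changes. Plin4, Fabp4 and Lpl, named after their values were seen, did not pass. Plin4 had 10.5 ± 11.3 CPM after S1P and 35.8 ± 30.1 CPM in vehicle. Fabp4 had 6.39 ± 5.33 CPM after S1P and 2.46 ± 1.63 CPM in vehicle. Lpl had 5.06 ± 4.46 CPM after S1P and 4.81 ± 3.79 CPM in vehicle (SD, n = 4 each). Scd1, a fatty acid desaturase, rose 2.37-fold, with 242, 299, 235 and 355 CPM in S1P replicates 5 to 8 and 119 ± 34.2 CPM in vehicle (SD, n = 4; edgeR adjusted p = 0.00966), and its call was kept in all 8 fits without 1 library. Angptl4, a secreted inhibitor of lipoprotein lipase and a PPAR target, fell 2.41-fold, with 125, 58.6, 98.3 and 66.9 CPM in S1P replicates 5 to 8 and 210 ± 69.3 CPM in vehicle (SD, n = 4; edgeR adjusted p = 0.0281). Dgat2, an enzyme of triglyceride synthesis, fell 2.16-fold to 15.7 ± 2.81 CPM, against 33.8 ± 9.31 CPM in vehicle (SD, n = 4 each; edgeR adjusted p = 0.0144). Angptl4 was no longer called when S1P replicate 6, 7 or 8 or vehicle replicate 3 was left out, nor Dgat2 when S1P replicate 6 or 8 was (edgeR adjusted p of up to 0.0952 and 0.0564). The beige and brown fat genes Ucp1, Cidea, Prdm16 and Dio2 had at most 4 counts in a library.

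None of the 12 tested PPARdelta targets of lipid use passed (median log2 fold change -0.09). Hadha, a subunit of the mitochondrial trifunctional protein, had 191 ± 8.58 CPM after S1P and 195 ± 12.4 CPM in vehicle (SD, n = 4 each). Over the settings run, 0 to 3 inhibitors were called higher and 0 to 4 lower, and 1 to 2 adipocyte markers were called higher and 0 to 4 lower. The share of all tested genes called in either direction ran from 3.63% to 21% over the same settings. Lists without a call gained 1 in some settings. These were a lower PPARdelta target with DESeq2, with a surrogate variable and without vehicle replicate 4, a higher PPARdelta target without vehicle replicate 1, a lower PPARgamma partner with GC offsets and a higher family relative without S1P replicate 5.

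**Figure D4:**
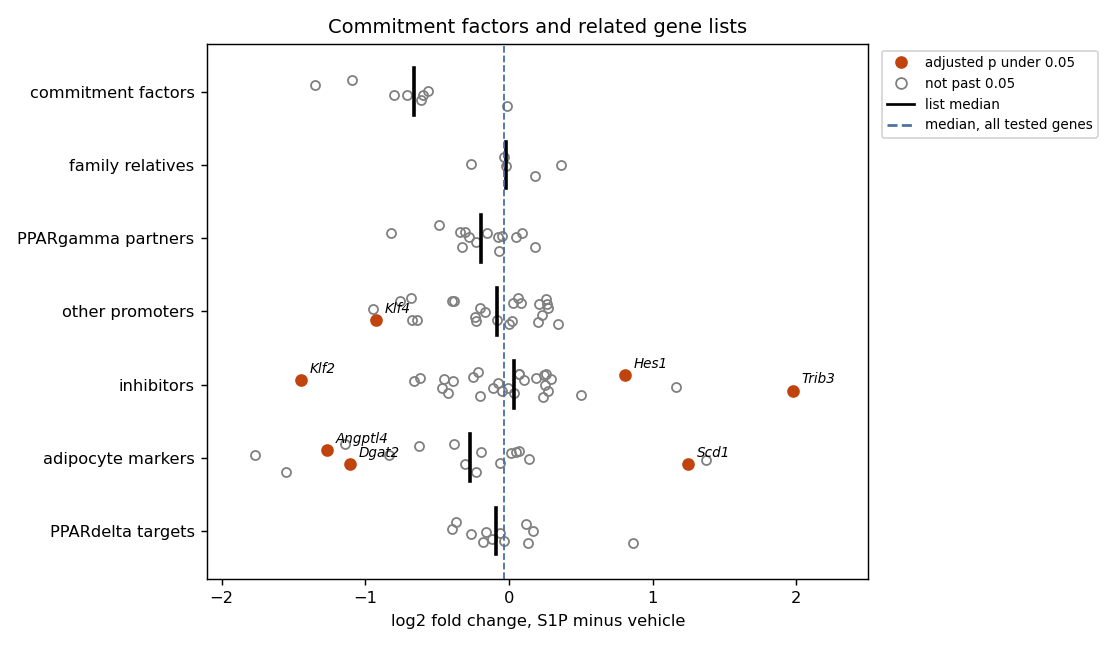
Log2 fold change (x axis, S1P minus vehicle) of every tested gene of the commitment factors and of 6 related lists; filled points passed the edgeR test (adjusted p under 0.05) and are named, open points did not, black bars are list medians and the dashed line is the median of all tested genes at -0.04. The commitment factors hold no filled point, and their median lies at -0.66.

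The tested genes whose profile over the 8 libraries was most like that of each factor were found by the root mean square difference of centred log2 CPM, as a description. For Ebf1 these were Ezh1, a histone methyltransferase (0.0919), and Tspyl4 (0.102), against a median of 0.459 over all tested genes. For Pparg they were Pcdhb9 (0.118) and Snn (0.129), against a median of 0.552. Ppard was closest to Fkbp8 (0.0786) and Acads (0.0792), and Cebpd to Vasn (0.0848) and 2010107H07Rik (0.125). Dlk1 was closest to Prr5 (0.1000) and Ocel1 (0.110), Zfp423 to Sepw1 (0.164) and Ralgds (0.186), Cebpb to Zfp36l1 (0.155) and Fam43a (0.178), and Cebpa to Zdhhc14 (0.182) and Tcf7 (0.246). For Ppard and Cebpd such a profile is dominated by the high value in vehicle replicate 4.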

How the data were processed

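RNA of 8 samples of C3H10T1/2 cells was sequenced, and the authors deposited whole-number counts per Ensembl gene with symbols and mm9 coordinates. STAR 2.5.3a and the build mm9 are named, per the submitters' processing notes. Which counting tool and annotation were used was not given in the sources used here. Deposited counts have nearly equal totals in all libraries, and how this came about is not stated, so the totals are the depth used here.

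Columns were matched to samples by title. Genes were kept with filterByExpr (minimum count of 10), and S1P was compared with vehicle by the robust quasi-likelihood test of edgeR 4.0.16 in R 4.3.3 with TMM factors, treatment as the only term and Benjamini-Hochberg adjustment over all 11844 tested genes (threshold 0.05). The 95% intervals use the standard error (SE) from the F statistic. C/EBP shares were compared by exact permutation over libraries. The fit was checked on simulated counts. The longest GENCODE transcript (GRCm38) gave length and GC content, and none of its coordinates was used. Profiles used log2(CPM + 0.5).

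Alternatives were relative log expression factors, no filter, 1 CPM in 4 libraries, DESeq2 1.42.0, limma-voom (limma 3.58.1), 1 surrogate variable (sva 3.50.0), leaving out each library, and, added after the data were seen, GC offsets and the capped length. The commitment factors and lists were chosen with earlier results of these data known, and the promoter motifs after the counts were seen. Named are all factors, up to 4 called members of each list or else its 2 most abundant (1 of these is not reported here), and for each tested factor its 2 most similar genes. Genes marked so, the other EBF, PPAR and C/EBP genes and those named as absent or near 0 were chosen after their values were seen.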

Additional observations from a re-analysis of the deposited data

Results flagged for a closer look

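Within a group of 4 libraries, 4 of the 20 sets of values of the 10 commitment factors held a library whose gap to its nearest neighbour, as a share of the group's range, exceeded Dixon's 95% critical value. Chance marks about 1 in 20 such sets. Cebpd stood at 97.1 CPM in vehicle replicate 4, whereas vehicle replicates 1 to 3 held 35.3 to 39.1 CPM. Ppard stood at 49.0 CPM in the same library, against 13.1 to 16.8 CPM in the others. In S1P replicate 6, Ebf1 stood at 148 CPM, against 199 to 202 CPM in the other S1P libraries, and Zfp423 at 0.727 CPM, against 1.10 to 1.16 CPM.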

How the results depend on the processing

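No paired analysis was run. The replicate numbers run from 1 to 4 in vehicle and from 5 to 8 in S1P, so the groups share none. Whether vehicle and S1P libraries were made in pairs is not stated. Among the tested factors, Cebpa and Dlk1 ran in the same order over vehicle replicates 1 to 4 and S1P replicates 5 to 8, as did Ebf3. Pparg, Ppard, Cebpb, Cebpd, Ebf1 and Zfp423 did not. If the libraries were made in pairs, the p-values and standard errors given here would also hold the spread between pairs. A pairing in this order was not tested. The count of commitment factors called lower, 0 with edgeR on all libraries, was 1 with relative log expression factors, 3 with DESeq2, 2 with a surrogate variable, 2 with GC offsets and 0 to 2 when a library was left out, the 2 being Ebf1 and Ebf2, whose S1P counts are all below the filter's minimum. In the same order, 8.5%, 8.23%, 15%, 21% and 15.9% of all tested genes were called in either direction. When a library was left out this share was 3.63% to 15.5%. No setting called a commitment factor higher. Over all genes, edgeR called 663 higher and 344 lower. DESeq2 called 804 lower, a surrogate variable gave 1471 higher and 1015 lower, and GC offsets gave 1028 higher and 816 lower. Leaving out a library gave 333 to 1133 higher and 101 to 723 lower, with the highest counts without vehicle replicate 4 and the lowest without S1P replicate 6. Higher genes made up 65.8% of the calls, 54.6% with DESeq2 and 55.7% with GC offsets. The log2 fold change of Cebpa, -0.02, was 0.062 with limma-voom, 0.32 with a surrogate variable, 0.57 with GC offsets, and -0.30 to 0.49 when a library was left out, being positive without vehicle replicate 4 and S1P replicates 5 and 6 (0.49, 0.21 and 0.11). The log2 fold changes of the other 7 tested factors stayed negative in all settings run. Without vehicle replicate 4 those of Cebpd and Ppard came to -0.13 each. The cause of these shifts was not tested. Counts of a few reads per library limit Ebf2 and Adipoq.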
